A study of Mus musculus with 6 samples.

Results

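The Ifit and Ifitm genes were followed in RNA sequencing libraries of mouse aortic smooth muscle cells (MASMCs) kept in culture. In the arterial wall such cells are contractile. The genes were found by symbol (Ifit1, Ifit2, Ifit3, Ifit3b, Ifitm1, Ifitm2 and Ifitm3). This gave 7 of the 54532 genes in the table, 4 of the Ifit family and 3 of the Ifitm family. The 6 libraries fell into 2 groups of 3. One group, here Ad-Con (genotype WT), carried a control plasmid in an adenoviral vector. The other, here Ad-PDK4 (genotype given as overexpression), carried a plasmid meant to raise PDK4, the kinase of mitochondria that restrains pyruvate oxidation. According to the study's methods the cells came from abdominal aortas of adult mice, were used after several passages and were exposed in both groups to angiotensin II, a peptide hormone that raises vascular tone. All libraries therefore share the adenovirus and the hormone, and cells without either were not analysed here. The question was how the expression programme of these cells differs between the vectors.

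Both families belong to the interferon-stimulated genes. Type I interferon acts through its receptor and Janus kinases on a complex of transcription factors that includes STAT2 and IRF9 and binds the interferon-stimulated response element (ISRE) in the promoters of their targets. IFIT proteins are cytoplasmic, built from tetratricopeptide repeats, and several of them bind viral RNA or translation factors. IFITM proteins are short membrane proteins of the CD225 family that hinder the fusion of enveloped viruses with cell membranes. Some IFITM members are made in many cell types without any interferon.

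Libraries held between 17588942 and 21861872 reads recovered on genes. Pdk4 itself, which checks the labels, had 679, 642 and 646 reads in Ad-Con libraries and 490, 455 and 572 in Ad-PDK4 libraries, so its level was lower where the label says overexpression (log2 fold change -0.42, limma adjusted p = 1.1e-03). Whether reads of the insert were counted was not tested. Groups below carry the names of their labels only. Of the smooth muscle markers Acta2 went from 78.0 ± 0.95 to 36.2 ± 2.4 FPKM (mean ± SD, n = 3 per group), and Smtn stood at 8.32 ± 0.114 and 8.44 ± 0.445 FPKM, while Myh11 had at most 10 reads and Tagln at most 20 in any library. Mylk had 188, 168 and 122 reads in Ad-Con libraries against 27, 28 and 24 in Ad-PDK4 libraries. Cnn1 (30, 20 and 22 against 17, 8 and 14 reads) and Des (13, 10 and 16 against 4, 3 and 3) were also lower. Mylk, Cnn1 and Des were not tested, and Lmod1 overlapped between the groups. The summed level of the 8 smooth muscle markers, mostly from Acta2, was 87.8 to 89.4 FPKM in Ad-Con libraries and 43.3 to 48.1 in Ad-PDK4 libraries. The 4 fibroblast markers did not move together: Col1a1 (1055 ± 42.4 and 435 ± 49.5 FPKM) and Lum (7.46 ± 0.728 and 3.31 ± 0.659) were lower, Dcn (90.1 ± 8.2 and 161 ± 19.0) was higher, and Pdgfra (20.5 ± 0.729 and 19.9 ± 0.804) did not pass the test. Their sum was 1119 to 1201 against 589 to 657 FPKM, and that of 5 endothelial markers 0.617 to 0.798 against 0.885 to 1.18. Of 8 macrophage markers, 4 (Ptprc, Tyrobp, Itgam and C1qa) had no read in any library and Adgre1 had at most 1, and the summed level of the list was 13.3 to 16.5 FPKM under the Ad-Con label and 3.83 to 5.83 under the Ad-PDK4 label, mostly from Cd68. Csf1r of that list went the other way, with 11, 23 and 35 against 56, 62 and 61 reads. The part of these cell markers in the results below was not tested. The T cell markers Cd3e and Cd3d and the dendritic markers Flt3 and Siglech had no read, while Zbtb46, the third dendritic marker, had 142, 163 and 153 against 93, 86 and 98 reads and was lower (log2 fold change -0.67, limma adjusted p = 0.033).

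The Ifit genes lie within 99.3 kb of chromosome 19, between positions 34550694 and 34650009 of GRCm38, in the order Ifit2, Ifit3, Ifit3b and Ifit1, all on the forward strand. The Ifitm genes lie within 55.9 kb of chromosome 7, between 140954837 and 141010770, in the order Ifitm2, Ifitm1 and Ifitm3, of which Ifitm1 alone is on the forward strand. Promoter sequences from RefSeq (GRCm38.p6, 250 bases before to 50 after each annotated start) were found for all 7 genes, in 8 windows, since Ifit2 has a pair of starts. The core of the ISRE, searched on both strands as 2 copies of GAAA with any 2 bases between them, was present for 5 of the 7 genes and absent from the windows of Ifit2 and Ifitm1. At least 2 copies were present for 4 genes, Ifit1, Ifit3, Ifit3b and Ifitm3. Among all 32851 windows in the RefSeq table, 3.44% held the letters once or more and 0.225% held them 2 or more times. A C required directly after it keeps a part of the same matches. Of all windows, 0.819% then held the letters once or more and 0.0274% held them 2 or more times. The same 4 genes held 2 copies each.

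The stretches that carry the letters are shown 5′ to 3′ along each gene, with the ISRE core in capitals. They were chosen because these 5 genes hold it and are all past the test described below. Ifit2 is past that test as well but holds no such core in its windows. The letters stand reversed and complemented in the Ifit stretches. They cover chr19:34640749-34640868 (+) for Ifit1, chr19:34583359-34583478 (+) for Ifit3, chr19:34607755-34607874 (+) for Ifit3b, chr7:141010716-141010804 (-) for Ifitm3 and chr7:140955989-140956041 (-) for Ifitm2.
Ifit1: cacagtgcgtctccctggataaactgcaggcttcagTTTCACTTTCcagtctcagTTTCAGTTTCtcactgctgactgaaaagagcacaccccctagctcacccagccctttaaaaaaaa
Ifit3: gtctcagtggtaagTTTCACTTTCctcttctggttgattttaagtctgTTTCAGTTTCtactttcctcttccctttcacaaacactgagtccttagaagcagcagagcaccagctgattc
Ifit3b: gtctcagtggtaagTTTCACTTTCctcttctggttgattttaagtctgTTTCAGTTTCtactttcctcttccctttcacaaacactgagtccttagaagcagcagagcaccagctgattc
Ifitm3: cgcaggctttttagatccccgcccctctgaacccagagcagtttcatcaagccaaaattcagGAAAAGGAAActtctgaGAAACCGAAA
Ifitm2: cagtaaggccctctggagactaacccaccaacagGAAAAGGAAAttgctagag

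The Ifit3 and Ifit3b stretches were identical over all 120 bases, so their matches are not independent of each other. In Ifit1 the copies began 104 and 85 bases before the start. In Ifitm3 they began at bases 3 and 20 counted from the RefSeq start, and in Ifitm2 the single copy began 46 bases before it. The gamma-activated site, searched as TTC and GAA with any 3 bases between them, was present once for Ifitm3, from base 14 to base 22 and so overlapping the second ISRE copy, and once in 1 window of Ifit2, 241 bases before the start. Of all windows 8.30% held that shorter motif. A match of letters is a description of the sequence and says nothing about binding.

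To ask how the members differed between the labels, FPKM (fragments divided by gene length and library size) was compared as log2(FPKM + 0.1) over all 13423 genes with a mean of at least 0.5 FPKM, a filter that all 7 members passed. In the libraries labelled Ad-PDK4, 6 of the 7 members were higher at a limma adjusted p below 0.05, where 21.8% of all tested genes were higher, 20.8% lower and 42.7% either by that rule, and 0 members were lower. With a fold of at least 2 required as well, 5 of 7 were called higher and 0 lower, against 3.95% and 2.68% of all tested genes, or 6.63% in either direction. Ifit1, Ifit3b, Ifit3, Ifitm3 and Ifit2 made up these 5. Ifitm2 rose by less than 2-fold, and Ifitm1 did not pass the test. The groups did not overlap for 6 of the 7, all of them higher, which was the case for 27.8% of all tested genes, or 54.3% in either direction. The median log2 fold change of the members was 2.36, and that of all tested genes was -0.003. In bulk RNA, a larger share of responding cells and more RNA in each cell cannot be told apart.

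**Figure D1:**
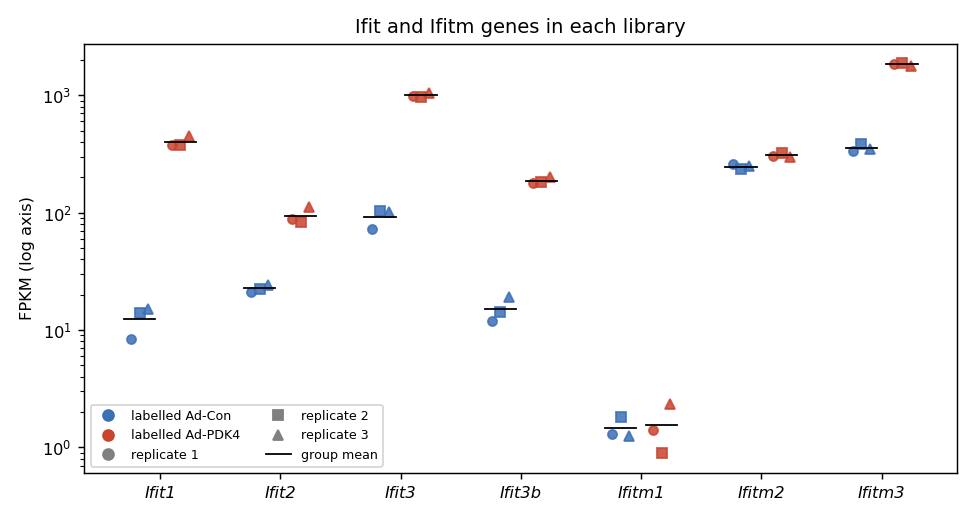
FPKM (log axis) of the 7 Ifit and Ifitm genes in each library, with Ad-Con libraries in blue, Ad-PDK4 libraries in red, a marker shape for each replicate and a black line at each group mean. Ifit1 moves from 12.5 to 403 FPKM, while the groups of Ifitm1 overlap.

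Ifit1 (ENSMUSG00000034459, chr19:34640871-34650009, +), which binds RNA whose cap lacks ribose methylation, had the largest change of the family. Its levels were 8.32, 13.9 and 15.2 FPKM among Ad-Con libraries, against 380, 378 and 451 FPKM among Ad-PDK4 libraries. All red libraries in the plot of FPKM lay far above the blue ones, and the lowest blue value was that of replicate 1. The log2 fold change of Ifit1 was 5.05 (SE 0.24, limma adjusted p = 4.3e-05), the 24th largest rise of all tested genes. Its rank by level moved from 4281 of all genes under the Ad-Con label to 69 under the Ad-PDK4 label.

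Ifit3 (ENSMUSG00000074896, chr19:34583531-34588731, +), whose human counterpart binds and stabilises IFIT1, was the most abundant Ifit gene in both groups. Ad-Con libraries held 72.6, 102 and 101 FPKM of it, Ad-PDK4 libraries 988, 968 and 1046 FPKM. The groups lay far apart, with a difference of 3.46 on the log2 scale (SE 0.13, limma adjusted p = 4.0e-06). Among all genes it stood at rank 492 by mean FPKM under Ad-Con and at rank 21 under Ad-PDK4.

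Ifit3b (ENSMUSG00000062488, chr19:34607970-34613401, +), a close paralogue of Ifit3, had 12.0, 14.2 and 19.2 FPKM in the Ad-Con libraries and 180, 181 and 199 FPKM in the Ad-PDK4 libraries. Its log2 fold change was 3.64 (SE 0.17, limma adjusted p = 1.7e-05). Ifit3 and Ifit3b share sequence: 41.1% of the 75-base stretches of the Ifit3 transcript also occur in Ifit3b, and 35.7% of those of Ifit3b occur in Ifit3. The counting can therefore have lost or split their reads, and the level of each is uncertain. The log2 ratio of Ifit3b to Ifit3 was -2.60, -2.85 and -2.40 in the Ad-Con libraries and -2.46, -2.41 and -2.39 in the Ad-PDK4 libraries. These ranges overlapped, and the difference of 0.19 had an exact two-sided permutation p = 0.3.

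Ifit2 (ENSMUSG00000045932, chr19:34550694-34576419, +), an RNA-binding member that has been linked to cell death, had the smallest rise of the Ifit members. It stood at 21.1, 22.3 and 24.3 FPKM against 88.0, 82.4 and 112 FPKM. The groups were far apart, and replicate 3 was the highest library in each. The log2 fold change was 2.05 (SE 0.12, limma adjusted p = 1.6e-05). Its 95% confidence interval, 1.77 to 2.32, did not reach that of Ifit3, 3.14 to 3.77.

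Ifitm3 (ENSMUSG00000025492, chr7:141009586-141010770, -), which acts in endosomes against viruses that enter there, was the most abundant of the 7 genes in both groups. It had 335, 386 and 346 FPKM in the Ad-Con libraries and 1851, 1862 and 1767 FPKM in the Ad-PDK4 libraries. The replicates lay close together, and the log2 fold change was 2.36 (SE 0.06, limma adjusted p = 1.3e-07). By mean FPKM it was the 96th gene of the table under the Ad-Con label and the 8th under the Ad-PDK4 label.

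Ifitm2 (ENSMUSG00000060591, chr7:140954837-140955987, -), a neighbour and close relative of Ifitm3, was also abundant without a large change. Its level was 257, 235 and 247 FPKM in Ad-Con libraries and 304, 324 and 298 FPKM in Ad-PDK4 libraries. The groups did not overlap, with the lowest Ad-PDK4 library at 298 FPKM and the highest Ad-Con library at 257 FPKM. The log2 fold change was 0.32 (SE 0.05, limma adjusted p = 2.2e-03). Its transcript shares 42.0% of its 75-base stretches with other genes, among them Gm45717, a gene on the same strand that overlaps 1101 of its 1151 genomic bases and had 0 reads in every library, and processed pseudogenes that had at most 3 reads in any library. Reads that could not be assigned to 1 gene may be missing from Ifitm2, so its level is uncertain.

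Ifitm1 (ENSMUSG00000025491, chr7:140967221-140969825, +), which is known from the cell surface, was barely detected. Ad-Con libraries held 29, 35 and 25 reads of it and Ad-PDK4 libraries 28, 17 and 57, which is 1.30, 1.82 and 1.26 against 1.41, 0.888 and 2.36 FPKM. The groups overlapped, with replicate 2 the lowest and replicate 3 the highest of the Ad-PDK4 libraries. The log2 fold change was -0.001, with a 95% confidence interval from -0.77 to 0.77 (limma adjusted p = 1.0). A change of up to 0.77 in either direction was therefore not excluded by these libraries with so few reads. The sign of the estimate turned with the processing.

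**Figure D2:**
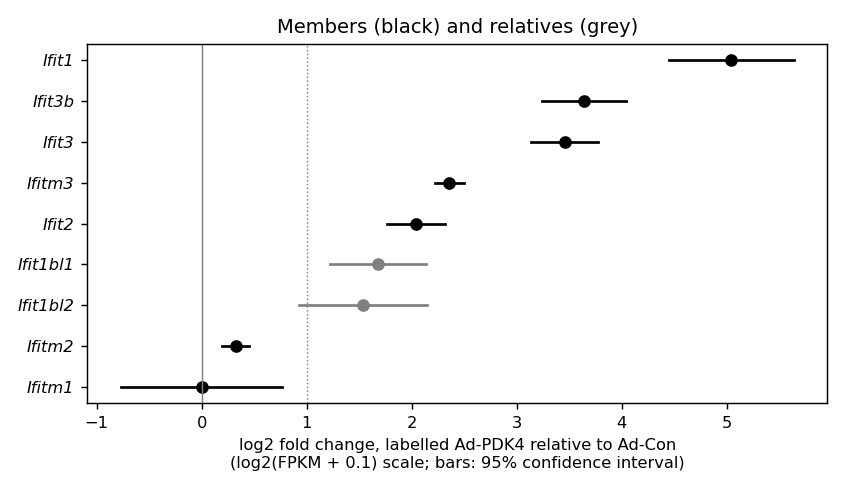
Log2 fold changes (libraries labelled Ad-PDK4 relative to Ad-Con, log2(FPKM + 0.1) scale) with 95% confidence intervals for the 7 members in black and the relatives Ifit1bl1 and Ifit1bl2 in grey, the dotted line marking 2-fold. Ifit1 stands at 5.05, the 2 grey genes at 1.68 and 1.54, and the interval of Ifitm1 spans 0.

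By level, the order in the Ad-Con libraries was Ifitm3 (356 ± 26.7 FPKM), Ifitm2 (246 ± 11.3), Ifit3 (92.0 ± 16.8), Ifit2 (22.6 ± 1.6), Ifit3b (15.1 ± 3.7), Ifit1 (12.5 ± 3.64) and Ifitm1 (1.46 ± 0.313; SD, n = 3). Only Ifit3b and Ifit1 overlapped among neighbours in this order. In the Ad-PDK4 libraries the order was Ifitm3 (1827 ± 52.0 FPKM), Ifit3 (1000.3 ± 40.4), Ifit1 (403 ± 42.0), Ifitm2 (308 ± 13.6), Ifit3b (187 ± 10.8), Ifit2 (94.2 ± 15.9) and Ifitm1 (1.55 ± 0.746), and no neighbours overlapped. Ifit1 thus moved from the sixth place to the third, and Ifit2 from the fourth to the sixth.

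The make-up of each family was compared as shares of its summed FPKM. Ifit1 took 8.63 ± 1.17% of the Ifit sum in the Ad-Con libraries and 23.9 ± 0.941% in the Ad-PDK4 libraries, while Ifit2 went from 16.1 ± 2.11% to 5.57 ± 0.571% (n = 3 each). Ifit3 remained the largest, at 64.6 ± 2.06% and 59.4 ± 1.43%. In the Ifitm family Ifitm3 took 58.9 ± 2.83% and 85.5 ± 0.348%, and Ifitm2 40.9 ± 2.88% and 14.4 ± 0.361%. The summed level of the Ifit genes was 142 ± 24.6 against 1684 ± 108 FPKM, and that of the Ifitm genes 604 ± 16.3 against 2137 ± 62.1 FPKM. The 4 Ifit genes together took 0.0313 ± 0.00492% of all reads under the Ad-Con label and 0.358 ± 0.0285% under the Ad-PDK4 label.

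**Figure D3:**
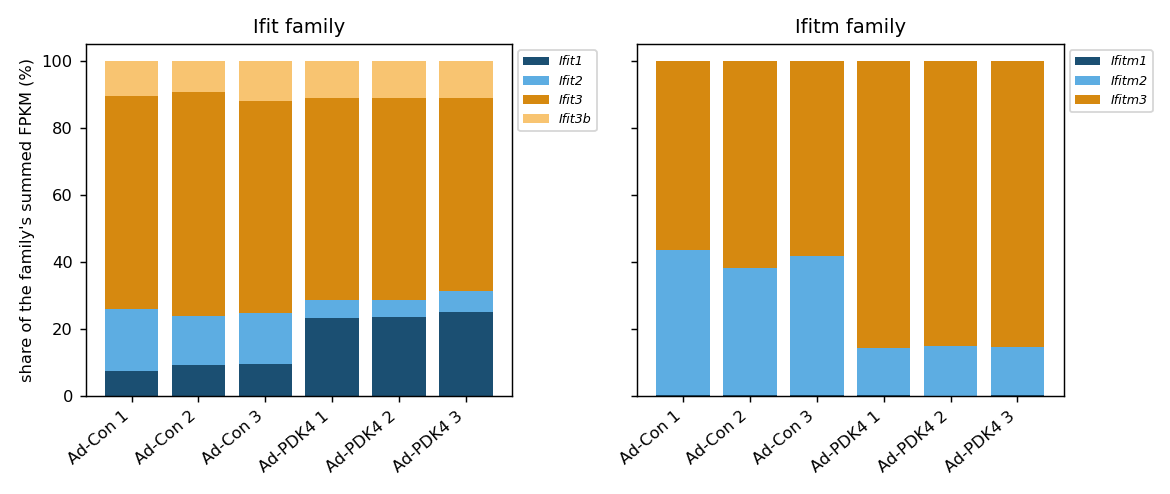
Share of each member in the summed FPKM of its family (%), stacked per library, for the Ifit family on the left and the Ifitm family on the right. The share of Ifit1 is 7.29 to 9.50% in the Ad-Con libraries and 23.2 to 25.0% in the Ad-PDK4 libraries, and Ifitm1 is too small to be seen.

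Whether members moved unequally was tested on ratios within each library, which do not depend on library size. The log2 ratio of Ifit1 to Ifitm3 was -5.33, -4.80 and -4.51 in the Ad-Con libraries and -2.29, -2.30 and -1.97 in the Ad-PDK4 libraries, a difference of 2.70. For Ifitm2 to Ifitm3 the log2 ratios were -0.38, -0.72 and -0.49 against -2.61, -2.52 and -2.57, a difference of -2.04. For Ifitm1 to Ifitm3 they were -8.01, -7.73 and -8.10 against -10.36, -11.03 and -9.55, a difference of -2.37 on few reads of Ifitm1. In each of these 3 ratios the groups did not overlap, and the exact two-sided permutation test gave p = 0.1, the smallest that 3 against 3 libraries allow. With the ratio of Ifit3b to Ifit3 this made 4 ratios, and none can pass 0.05 in this design.

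Of 6 further Ifit and Ifitm genes, Ifit1bl1 and Ifit1bl2 passed the filter and were called higher, where 3.95% of all tested genes were. Ifit1bl2 passed it only through the Ad-PDK4 libraries, where it is high. Ifit1bl1 had 39, 28 and 45 reads against 107, 110 and 189 (log2 fold change 1.68, limma adjusted p = 3.7e-04). Ifit1bl2 had 16, 19 and 17 reads against 53, 60 and 82 (log2 fold change 1.54, limma adjusted p = 2.5e-03). Both lie inside the Ifit cluster on the reverse strand, at 0.878 and 0.278 FPKM under the Ad-Con label. Ifit1bl2 ends 127 bases from the beginning of Ifit1 in the table, head to head with it, and the ISRE letters of the Ifit1 stretch at chr19:34640785-34640794 and chr19:34640804-34640813 are also those found in the Ifit1bl2 window. The transcript of Ifit1bl2 shares 5.34% of its 75-base stretches with Ifit1 or Ifit1bl1, and that of Ifit1 shares 5.19% with Ifit1bl2. The other 4 were near the detection limit. Ifitm5, known from bone, had at most 9 reads in any library, Ifitm6 at most 5 and Ifitm10 at most 14, each with overlapping groups, and Ifitm7 had 0 reads in every library. A count of 0 allows up to 3 reads, counting error only.

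Of the CD225 proteins outside the Ifitm family, 4 of 5 symbols were found in the table and 1 passed the filter. Syndig1, a synaptic membrane protein, had 1.14 ± 0.107 FPKM under the Ad-Con label and 0.319 ± 0.0888 under the Ad-PDK4 label, a fall of 1.58 on the log2 scale (limma adjusted p = 1.9e-03), and passed the filter only through the Ad-Con libraries. Prrt1 had 17, 15 and 16 against 14, 6 and 14 reads and was not tested. Prrt2, with 8 to 27 reads, and Tmem91, with 3 to 15, overlapped between the groups.

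The neighbourhood of each cluster was compared, to see whether genes around the members moved with them. Within 250 kb of the Ifit cluster or inside it, 6 other genes were tested and 4 were called higher, where 3.95% of all tested genes were. Ch25h and Ifit1bl2 passed the filter only through the Ad-PDK4 libraries, which leaves 2 of 4 among those at 0.5 FPKM or more in both groups. Ch25h, an interferon-induced enzyme that makes 25-hydroxycholesterol, lies 75.6 kb away and had 5, 2 and 5 reads against 114, 130 and 270 (log2 fold change 4.64, limma adjusted p = 1.4e-05). Fas, the death receptor, lies 223 kb away and went from 8.98 ± 1.34 to 18.9 ± 1.24 FPKM (log2 fold change 1.08, limma adjusted p = 1.5e-04). The others were Ifit1bl1 and Ifit1bl2, the Ifit relatives inside the cluster that were already described above. Lipa, the lysosomal acid lipase at 23.2 kb and the nearest gene outside, had 82.1, 83.3 and 84.2 against 50.5, 48.9 and 50.4 FPKM, a lower level in each Ad-PDK4 library (log2 fold change -0.73, limma adjusted p = 9.0e-06), and Pank1 had -0.01 (limma adjusted p = 0.96).

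Around the Ifitm cluster 14 other genes were tested, of which 5 rose and 2 fell at an adjusted p under 0.05, against 21.8% and 20.8% of all tested genes, and 1 rose past the 2-fold limit. That gene was Rassf7, 205 kb away, at 2.36 ± 0.281 against 5.47 ± 0.851 FPKM (log2 fold change 1.18, limma adjusted p = 2.9e-04). The nearest, Pgghg at 7.17 kb, had 0.14 (limma adjusted p = 0.072). Gm15542, a processed pseudogene, rose by 0.58, Hras by 0.35, Bet1l by 0.33 and Phrf1 by 0.32, all below 2-fold. Ptdss2 and Rnh1, an inhibitor of ribonucleases, fell by 0.45 and 0.20. Psmd13, Ric8a, Sirt3, Zfp941, Lrrc56 and Gm5905 lay between -0.32 and -0.01 and did not pass the test. The median log2 fold change of the 14 was -0.01. Irf7, described below, lies just outside this window, between positions 141262706 and 141266481, and is not among the 14. It overlaps the end of Phrf1 at 141262750. Irf7 rose by 5.00 on the log2 scale (limma adjusted p = 8.5e-08), more than any of the 14. The absence of a large rise among these neighbours therefore depends on where the window ends.

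**Figure D4:**
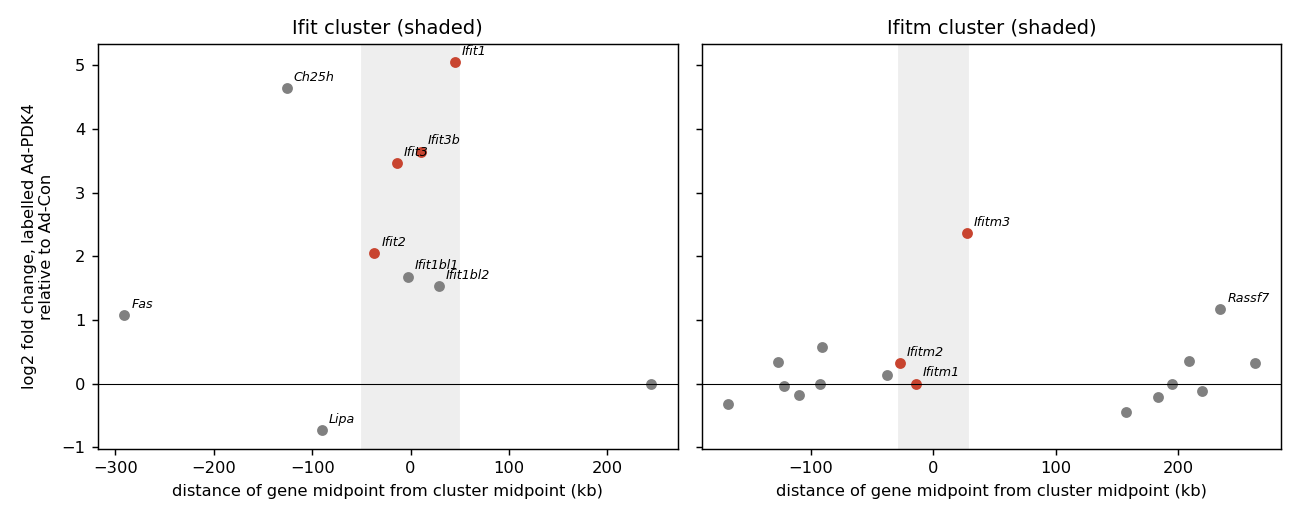
Log2 fold change (labelled Ad-PDK4 relative to Ad-Con) of tested genes within 250 kb of the Ifit cluster (left) and of the Ifitm cluster (right) against the distance of the gene's midpoint from the cluster's midpoint in kb, members in red, other genes in grey and the cluster shaded. Among the genes shown, Ch25h at 4.64 is the highest outside either cluster, and Ifitm1 at -0.001 lies between Ifitm2 and Ifitm3. Irf7, at 5.00, lies just outside the window of the Ifitm cluster and is not shown.

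Interferon signalling was described from a list of 16 receptors, kinases, factors and feedback regulators, all of which were tested. Of the 16, 11 passed an adjusted p of 0.05 as higher and 0 as lower, against 21.8% and 20.8% of all tested genes, with a median log2 fold change of 0.89. The largest rises were in Irf7, a factor that amplifies interferon production (5.69 ± 0.794 to 184 ± 11.6 FPKM, log2 fold change 5.00), Stat2 (8.38 ± 0.187 to 52.1 ± 3.36 FPKM, 2.62) and Usp18, which removes ISG15 and damps the receptor (15.7 ± 0.621 to 87.6 ± 2.33 FPKM, 2.47). The smallest values were those of Irf3 (0.02), Ifnar1 (0.04) and Ifngr2 (0.06), none past the test (limma adjusted p = 0.88, 0.64 and 0.53). Irf9, which binds the ISRE together with Stat2, rose by 1.58 on the log2 scale.

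Of 20 interferon genes none passed the filter and 3 had any read. Ifnb1, the gene of interferon beta, had no read in any Ad-Con library, and 7, 5 and 5 reads in Ad-PDK4 libraries. Against a limit of 3 reads in each Ad-Con library it was 1.85-fold higher. That value leaves out the counting error of the Ad-PDK4 reads and is no lower bound. Without the filter it passed the test (limma adjusted p = 2.1e-03), on these few reads, all in the libraries where it is high. Ifna5 had 1 read in 1 library and Ifne had 1, 0 and 4 reads against 0, 0 and 0.

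The proteins with which the members work were described from 3 lists. Among 6 tested enzymes that build or read the mRNA cap, which IFIT1 inspects, 3 passed the test as higher and 1 as lower, against 21.8% and 20.8% of all tested genes, and none was past 2-fold on the log2(FPKM + 0.1) scale. Cmtr1, which methylates the first ribose and is itself interferon-induced, had 0.584 ± 0.0814 against 1.25 ± 0.0749 FPKM (log2 fold change 0.98, limma adjusted p = 3.9e-03), a ratio of means of 2.13 that the pseudocount lowers. Cmtr2 (0.32) and Rnmt (0.24) were higher and Pcif1 (-0.30) lower, with limma adjusted p of 0.029, 0.028 and 0.034, while Dxo had -0.26 and Rngtt 0.07 (limma adjusted p = 0.081 and 0.66). The median of the list was 0.16. These counts moved with the processing: 1 gene was higher when Ad-Con replicate 1 or 2, or Ad-PDK4 replicate 1 or 3, was left out. For the lower genes the count was 0 without either Ad-Con replicate 1 or 3 or Ad-PDK4 replicate 1 or 3, and 2 without Ad-PDK4 replicate 2.

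Among 14 subunits of the translation factor eIF3, to which IFIT proteins bind, 1 was higher and 3 were lower, with a median of -0.04. Of all tested genes 21.8% were higher and 20.8% lower, so the 3 lower subunits are near the background. Eif3b rose by 0.39 on the log2 scale (limma adjusted p = 6.2e-04). Eif3l (-0.33), Eif3i (-0.29) and Eif3h (-0.12) were lower, with limma adjusted p of 6.9e-04, 0.030 and 0.0498. Only 1 subunit was lower when Ad-Con replicate 2 or 3, or Ad-PDK4 replicate 1 or 3, was left out. Eif3a had -0.12 (limma adjusted p = 0.068), Eif3j1 0.16 and Eif3j2 0.15, the latter pair not past the test (limma adjusted p = 0.14 and 0.80).

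Among 6 modifiers and partners of IFITM proteins, 1 was higher and 3 were lower, with a median of -0.24, where 21.8% and 20.8% of all tested genes were. Nedd4, a ubiquitin ligase that promotes the turnover of IFITM3, went from 265 ± 5.26 to 188 ± 7.58 FPKM (log2 fold change -0.49, limma adjusted p = 1.3e-04). Zdhhc20, which attaches palmitate to IFITM3, had 22.2 ± 0.757 and 17.5 ± 1.29 FPKM (-0.34, limma adjusted p = 4.4e-03), and Setd7, a lysine methyltransferase, had -0.30 (limma adjusted p = 4.4e-03). Zmpste24, a membrane protease that cooperates with IFITM proteins, was higher by 0.23 (limma adjusted p = 0.020). This last call was lost, leaving 0 genes higher, when Ad-Con replicate 1 or 2, or Ad-PDK4 replicate 1 or 3, was left out. Vapa had 0.14 and Fyn -0.18 (limma adjusted p = 0.075 and 0.063).

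The genes most like each family were named by the distance between profiles of log2(FPKM + 0.1) over the 6 libraries, each centred on its Ad-Con mean and compared with the median profile of the family, among 7725 other genes with a mean of at least 5 FPKM. For the Ifit genes these were Slfn8 (distance 0.18), Rtp4 (0.27), Trim30a (0.29), Igtp (0.41) and Ifi204 (0.44), with log2 fold changes of 3.56, 3.43, 3.46, 3.76 and 3.50. Slfn8 stood at 1.21 ± 0.197 against 15.3 ± 1.87 FPKM and Igtp, an immunity-related GTPase, at 6.14 ± 0.954 against 83.8 ± 5.21 FPKM. For the Ifitm genes the median profile rose by only 0.46, since its members ran from -0.001 to 2.36, and the nearest genes were Mrgbp (distance 0.15), Ostc (0.17), Crk (0.18), Tpm3-rs7 (0.19) and Celf1 (0.19), with log2 fold changes from 0.40 to 0.48. No single Ifitm member had that profile, so these names describe the middle of 3 unlike genes. Slfn8, Trim30a and Mrgbp reached the minimum of 5 FPKM only through the Ad-PDK4 libraries. Under the Ad-Con label they stood at 1.21, 4.92 and 4.66 FPKM. Since all these genes were chosen by profile, their fold changes follow from that choice and are no separate result. The libraries fall into 2 groups, which any gene that differs between them shares.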

How the data were processed

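The deposited values were FPKM for each gene in each library, not pooled, beside the gene length used by the authors. The submitters' processing notes name CASAVA 1.8, fastp, HISAT2 2.0.5, featureCounts 1.5.0-p3 and DESeq2 1.20.0, and the build GRCm39. However, 98.3% of the 54409 gene identifiers found in GENCODE mouse release 21 had the GRCm38 coordinates given there, so coordinates are on GRCm38. The strand setting is not given in the sources used here. For library preparation the labels give a SMARTER kit, whereas the methods give NEBNext Ultra. FPKM times gene length gave whole reads (each a counted fragment) for 100% of non-zero values within 0.01 reads, and the size behind each FPKM equalled a median-of-ratios size. For a length of 1 kb, 0.0453 to 0.0571 FPKM stood for 1 read.

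The test was limma 3.58.1 (R 4.3.3; trend and robust moderation, 2 groups, no covariate) on log2(FPKM + 0.1), Benjamini-Hochberg adjusted over the 13423 genes whose mean FPKM reached 0.5. A fold change on this scale understates that of low genes. Calls needed an adjusted p under 0.05 together with a 2-fold difference. The code was tested on simulated data. The methods describe biological replicates, without saying whether these were separate cultures or animals, so p-values measure the spread between these libraries. Replicates differed by more than sampling noise in every pair (chi-square per degree of freedom of at least 4.17). Genes were named by a rule: the 7 members, all Ifit, Ifitm and CD225 relatives, up to 3 rises and 3 falls per other list, tested genes within 250 kb of a cluster, and the 5 genes most like each family. Irf9 and Eif3h fall outside it, as do the marker genes named, and these were picked with their values known. The members and lists were chosen with earlier results of these data known. Trarg1 and Ramac were not found under these symbols. Proteins were not analysed here.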

Additional observations from a re-analysis of the deposited data

How the results depend on the processing

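Over 16 alternatives, of which median of ratios repeats the sizes already in the FPKM and could change nothing, 5 of the 7 members stayed called higher and none lower, and the 6 that passed the test in the main comparison stayed past it. Ifit1 ranged from 4.78 to 5.21, Ifit3b from 3.49 to 3.83, Ifit3 from 3.30 to 3.54, Ifitm3 from 2.32 to 2.61, Ifit2 from 1.91 to 2.14 and Ifitm2 from 0.29 to 0.41 on the log2 scale. Ifitm1 could not be tested with a minimum mean of 5 FPKM. Its estimate of -0.001 turned positive with a pseudocount of 1 (0.018), TPM (0.035), quantile normalization (0.017) and limma-voom on recovered reads (0.054), and leaving out 1 library gave -0.34 to 0.32, with positive values without Ad-Con replicate 2 (0.16), Ad-PDK4 replicate 1 (0.02) or Ad-PDK4 replicate 2 (0.32). It passed the test in none of these alternatives. The differences of log2 ratios kept their sign when any 1 library was left out.

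Of all tested genes, 530 were called higher and 360 lower, 258 and 114 with a minimum mean of 5 FPKM, and 361 and 153 with a pseudocount of 1. The share of calls that were higher was thus 59.6%, 69.4% and 70.2%. With the replicate block, 529 were higher and 354 lower and 5 members higher. No pairing by replicate number was seen. Same-numbered libraries had correlations of -0.046, -0.031 and -0.0013 between their deviations from the group means, and no library correlated best with its own number. Other pairs lay between -0.023 and 0.057, so the check cannot show whether same-numbered libraries were handled together. The minimum of 5 FPKM left 0 of the Ifit and Ifitm relatives higher and 0 of the CD225 relatives lower, because these genes were no longer tested. Without the filter 1 interferon gene, Ifnb1, was higher. Of the cap enzymes, 1 was higher without the filter and with the minimum of 5 FPKM. The lower ones numbered 0 without the filter, under TPM and without trend or robust moderation, and 2 under quantile normalization, the replicate block and limma-voom. Leaving out 1 library gave 1 to 3 cap enzymes higher and 0 to 2 lower, 1 to 2 eIF3 subunits lower and 0 to 1 IFITM partners higher. Of the eIF3 subunits, 2 were higher under TPM and limma-voom, and 1 was lower without the filter and without trend or robust moderation. Of the IFITM partners, 2 were higher under TPM and 0 under quantile normalization. The cause was not tested, apart from the genes no longer tested above. Ifitm1, Ifnb1 and the relatives rest on few reads.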
